A study of Mus musculus with 8 samples.

Results

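The 9 genes described here belong to the network of transcription factors around ATF4 and CHOP: Atf4, Atf5, Ddit3 (which encodes CHOP), Atf3, Cebpb and Cebpg, with their downstream genes Trib3, Chac1 and Nupr1. They were chosen by name, and all 9 were found among the 14012 genes of the count table. RNA came from the quadriceps femoris (QF), a large thigh muscle, of 4 knockout mice and 4 control mice, with 1 library per mouse. Knockout mice were Grpel1 skm-/- (written smk in the sample labels): both Grpel1 alleles are floxed and are cut by a Cre recombinase that is made under the human α-skeletal actin promoter, so in muscle fibres, and that needs tamoxifen, given from 5 weeks of age. Control mice were Grpel1 flox/flox, so both groups carry the floxed alleles. It is not stated for these libraries whether the controls received tamoxifen, nor how old the mice were when the muscle was taken. GRPEL1 is the nucleotide exchange factor of mitochondrial Hsp70, the motor that pulls proteins into the mitochondrial matrix.

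ATF4 is a basic leucine zipper (bZIP) protein whose mRNA is translated best when the initiation factor eIF2α is phosphorylated, a state that amino acid shortage, misfolded proteins in the endoplasmic reticulum or mitochondrial dysfunction can bring about. It binds DNA as a dimer, often with a C/EBP protein, and raises genes of amino acid synthesis and uptake as well as the gene for CHOP, which in turn acts with ATF4 on genes of protein folding and cell death. In muscle with mitochondrial disease this network is known for the hormones FGF21 and GDF15. Because ATF4 and ATF5 are largely controlled at translation, mRNA levels describe only part of their regulation.

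Promoters of the 9 genes were searched for short sequences that such dimers bind, since 8 of them moved in 1 direction (below). RefSeq's promoter table for GRCm38.p6 gives, per transcript start, 250 bases before and 50 bases after it, and all 9 genes matched by Entrez Gene number. TGATGCAA, the core of the composite C/EBP-ATF site, was found on either strand in the promoters of Atf3, Chac1 and Nupr1, 3 of 9 genes, against 294 of 32851 promoters in the whole table (0.895%). A gene can have more than 1 promoter. Counted by gene, 78 of the 10673 genes of the count table with a promoter sequence held it. The stretches are shown on each gene's own strand, 5′ to 3′, with the site in capitals, which reads TTGCATCA there because the match lies on the opposite strand:
Atf3, chr1:191183386-191183493, minus strand: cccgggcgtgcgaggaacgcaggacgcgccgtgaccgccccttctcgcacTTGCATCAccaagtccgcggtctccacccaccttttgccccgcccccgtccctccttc
Chac1, chr2:119350999-119351106, plus strand: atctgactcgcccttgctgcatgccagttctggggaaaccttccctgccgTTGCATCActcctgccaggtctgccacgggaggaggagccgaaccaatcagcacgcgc
Nupr1, chr7:126625523-126625630, minus strand: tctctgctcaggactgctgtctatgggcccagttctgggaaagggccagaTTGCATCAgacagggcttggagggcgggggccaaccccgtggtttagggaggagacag

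The site began 110 bases before the start of Atf3, 193 bases before that of Chac1 and 110 bases before that of Nupr1. With the sixth letter left free (TGATGNAA, which includes every TGATGCAA), the promoter of Trib3 also matched, as TGATGTAA on the opposite strand, 15 bases after the start, and 3.97% of all promoters matched:
Trib3, chr2:152344028-152344057, minus strand: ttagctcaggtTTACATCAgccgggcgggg

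Atf4, Atf5, Ddit3, Cebpb and Cebpg held none of the motifs searched in this window. TGACGTCA, the cyclic AMP response element (1.79% of all promoters), TTGCGCAA, a C/EBP palindrome (0.183%), and the ER stress response element (0.119%) were in none of the 9. A match is a match of letters and not a bound site. Among the 78 genes of the count table whose promoter holds TGATGCAA, 29.5% were higher and 28.2% lower in knockout libraries at the threshold used below, with a median log2 fold change of 0.16. Over the 10673 genes of the table with a promoter sequence these shares were 24.1% and 20.9%, and the median was 0.069.

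Of the 9 genes, 8 were higher in knockout libraries and Chac1 did not pass the threshold, an adjusted p under 0.01 from the quasi-likelihood test of edgeR, with p-values adjusted over all 14012 genes by Benjamini-Hochberg. Of all genes tested, 23.6% were higher at this threshold, 21.1% were lower and 44.7% passed in either direction. The median log2 fold change of the 9 genes was 1.74, beside 0.065 over all genes. At least 2-fold, 6 of the 9 were higher, beside 9.83% of all genes. DESeq2 also called 8 higher, beside 23.2% of all genes. In 8 of the 9 the ranges of both groups did not overlap, beside 53.4% of all genes. No gene of the 9 was lower at this threshold in edgeR or in DESeq2, and 1, Chac1, was lower at an unadjusted p under 0.05. These genes were picked with such results known, so their count describes them and is not a test of the network. In QF samples, fewer cells of a type and less RNA per cell cannot be told apart.

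**Figure D1:**
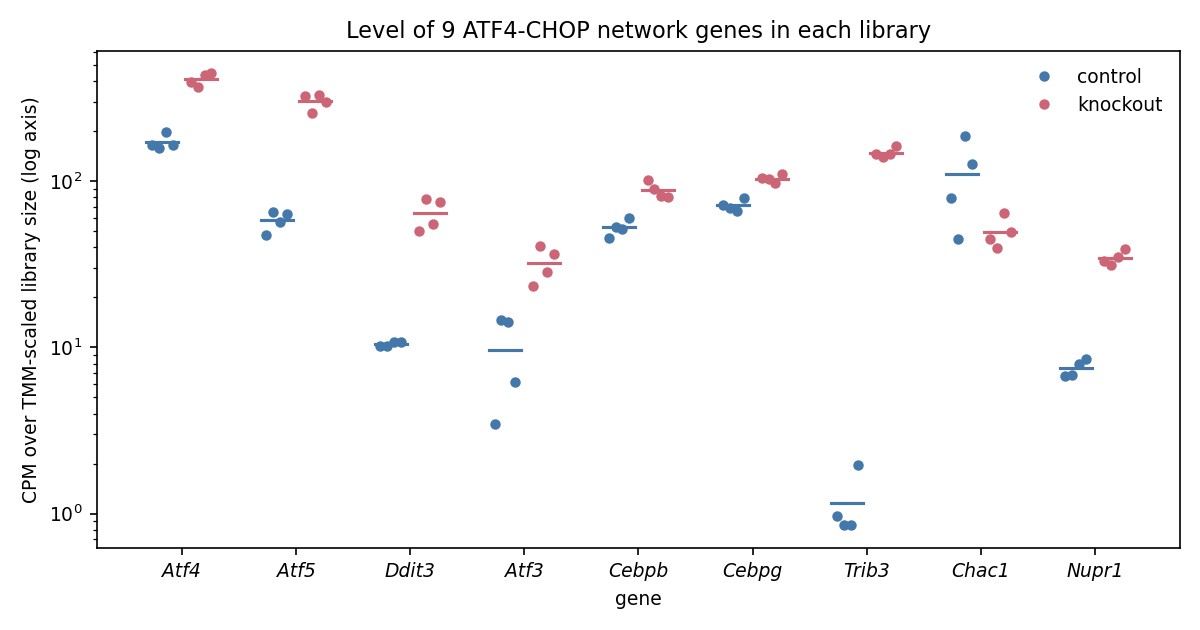
Levels of the 9 genes in each of the 8 libraries, as CPM (counts over the TMM-scaled library size) on a log axis; points are libraries, bars are group means, control in blue and knockout in red. Trib3 lies between 0.851 and 1.95 CPM in control libraries and between 140.1 and 162.8 CPM in knockout libraries, and Chac1 alone has overlapping groups.

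The libraries held 16017565 to 18813042 counts in the controls and 16424608 to 20361144 in knockout libraries, and each of the 9 genes had at least 3635 counts over the 8 libraries. Levels are given as CPM, counts divided by a library size that TMM has scaled, which corrects for a few very abundant RNAs. The scaling matters here, because the 20 most abundant genes took 36.5% to 40.1% of the control counts and 19.7% to 23.5% of the knockout counts, and the TMM factors were 0.747 to 0.844 and 1.19 to 1.33. With TMM 3303 genes were higher and 2962 lower, so 52.7% of the calls were higher, while with library totals alone 8498 were higher and 873 lower (90.7%) and the median over all genes was 0.73 on the log2 scale. The targeted gene, Grpel1, was not called different by its whole-gene count with TMM (log2 fold change -0.066, SE 0.078, edgeR adjusted p = 0.49). With library totals alone it was higher in knockout libraries (0.61, edgeR adjusted p = 1.711e-04). The count thus does not check the labels, and every direction below rests on them.

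Atf4 (Entrez Gene 11911, chromosome 15 from 80255184 to 80257545 of GRCm38, plus strand), the factor that names the network, rose 2.39-fold. Its level was 166.3, 159.5, 197.9 and 166.5 CPM in control replicates 1 to 4 and 394.5, 371.9, 438.0 and 447.2 CPM in knockout replicates 1 to 4. The lowest knockout library thus stood 1.88 times as high as the highest control library. The log2 fold change was 1.26 (standard error, SE, 0.095, edgeR adjusted p = 2.957e-06), and the 2 groups did not overlap (exact permutation p = 0.0286, two-sided, the smallest that 4 against 4 allows).

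Atf5 (Entrez Gene 107503, chromosome 7 from 44812256 to 44816658, minus strand), a relative of Atf4 that is tied to the mitochondrial unfolded protein response, rose more, by 2.38 on the log2 scale (SE 0.12, edgeR adjusted p = 3.173e-07). It read 47.8, 65.1, 57.0 and 64.0 CPM in control libraries and 324.9, 258.6, 329.2 and 302.5 CPM in knockout libraries. Control replicate 1 was lowest among the controls and knockout replicate 2 among the knockouts, and no control library came near a knockout library. Exons of Atf5 overlap GENCODE exons of Nup62 and Il4i1 on the opposite strand, and whether the authors' counting used strand is not stated. Nup62 itself changed from 32.5 ± 0.863 to 47.8 ± 1.31 CPM (SD, n = 4 each; log2 fold change 0.56).

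Ddit3 (Entrez Gene 13198, chromosome 10 from 127290793 to 127296288, plus strand) encodes CHOP, which dimerizes with C/EBP proteins and is best known from prolonged stress of the endoplasmic reticulum. The controls were nearly alike, at 10.2, 10.3, 10.8 and 10.8 CPM. The knockouts spread more, at 50.5, 78.3, 55.3 and 74.9 CPM, with replicates 2 and 4 above replicates 1 and 3. The coefficient of variation was 3.12% in the controls and 21.4% in knockout libraries, where the median over the 9184 genes with a mean of at least 5 CPM in both groups was 9.23% and 8.39%. Ddit3 rose by 2.62 on the log2 scale, 6.16-fold (SE 0.15, edgeR adjusted p = 5.942e-07). Its exons overlap GENCODE exons of Mars, the gene of a methionyl-tRNA synthetase, and of Gm4189, both on the opposite strand. Mars was at 83.4 ± 5.81 CPM in control libraries and 127.0 ± 16.8 CPM in knockout libraries (SD, n = 4 each).

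Atf3 (Entrez Gene 11910, chromosome 1 from 191170296 to 191183333, minus strand) is induced by ATF4 and by many other stimuli, and its protein mostly represses transcription. Among the controls it was uneven: 3.47, 14.6, 14.2 and 6.24 CPM. The knockouts were at 23.5, 41.0, 28.6 and 36.5 CPM, each above every control. The log2 fold change was 1.74, with the largest standard error among the 9 genes (0.37, adjusted p = 0.002685 from edgeR), and it ran from 1.47 to 2.01 when each library was left out in turn, with adjusted p-values of 0.00243 to 0.00937. In the knockouts the libraries ranked as they did for Ddit3, replicate 2 highest, then 4, 3 and 1. The control coefficient of variation of 58.5% was above the 95th percentile of the 9184 genes (28.6%).

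Cebpb and Cebpg encode C/EBPβ and C/EBPγ, partners with which ATF4 and CHOP form dimers, and both rose by less than a factor of 2. Cebpb (Entrez Gene 12608, a gene of 1 exon on chromosome 2 from 167688915 to 167690432, plus strand) was at 45.6, 53.2, 51.8 and 60.5 CPM in control libraries and 102.2, 89.9, 81.6 and 80.9 CPM in knockout libraries, a log2 fold change of 0.75 (SE 0.10, edgeR adjusted p = 1.648e-04). Cebpg (Entrez Gene 12611, chromosome 7 from 35046422 to 35056566, minus strand) was at 72.0, 69.1, 66.8 and 79.6 CPM and at 104.6, 103.1, 97.8 and 110.8 CPM, a log2 fold change of 0.53 (SE 0.074, edgeR adjusted p = 1.559e-04). Cebpg had the smallest spread of the 9 genes among the knockouts, with a coefficient of variation of 5.15%. A GENCODE gene overlaps exons of Cebpb (Tmem189, opposite strand), and 2 overlap those of Cebpg (Gm44836 on the same strand and Gm45095 on the opposite strand).

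Trib3 (Entrez Gene 228775, chromosome 2 from 152337425 to 152344060, minus strand) encodes a pseudokinase that ATF4 and CHOP induce and that holds back ATF4 activity and AKT signalling. Control muscle held little of it, with 12, 13, 12 and 31 counts, while the knockout libraries had 3507, 3060, 3549 and 4097 counts. As CPM these were 0.969, 0.851, 0.859 and 1.95 against 146.2, 140.1, 146.5 and 162.8. All 4 control libraries stood above the 3 counts that a count of 0 allows at 95%, so the fold rests on measured levels. It was the largest change of the 9 genes, 6.98 on the log2 scale (SE 0.20, edgeR adjusted p = 2.948e-08), and between 6.84 and 7.38 when each library was left out. In the knockouts Trib3 was even, with a coefficient of variation of 6.54%.

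Nupr1 (Entrez Gene 56312, chromosome 7 from 126623246 to 126625470, minus strand) encodes a small stress-induced chromatin protein that is known to respond to ATF4. It stood at 6.70, 6.87, 7.94 and 8.51 CPM in control libraries and at 33.3, 31.2, 35.1 and 39.4 CPM in knockout libraries. The groups were far apart and the spread within each was small, with a coefficient of variation of 11.5% among the controls and a highest knockout library 1.26 times the lowest. It rose by 2.21 on the log2 scale (SE 0.11, edgeR adjusted p = 2.992e-07). Trib3, Nupr1 and Atf4 ranked the 4 knockout libraries alike, replicate 4 highest, then 3, 1 and 2.

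Chac1 (Entrez Gene 69065, chromosome 2 from 119351242 to 119354326, plus strand) encodes an enzyme that breaks down glutathione, and it is usually named as a target of ATF4 and CHOP. It was the one gene of the 9 with a negative fold change, -1.15 on the log2 scale (standard error 0.36), which missed the threshold (adjusted p = 0.02006 from edgeR). The control libraries were widely spread, at 80.0, 45.1, 188.9 and 127.8 CPM, and the knockouts were at 45.1, 39.8, 64.8 and 49.3 CPM. Control replicate 2 fell within the range of the knockouts, and the exact permutation test gave p = 0.0857 (two-sided). Without control replicate 2 the log2 fold change was -1.41 with an adjusted p of 0.002081 from edgeR, past the threshold, and without control replicate 3 it was -0.76 with an adjusted p of 0.05763. Library totals alone gave -0.48 (adjusted p = 0.2325) and DESeq2 gave -1.19 (adjusted p = 0.01318). The sign was negative under each of these settings.

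In both groups Chac1 ranked the replicates 3, 4, 1 and 2 from high to low. The adipocyte marker genes, which also differed between libraries, had summed levels of 1497, 995.8, 248.9 and 1462 CPM in control replicates 1 to 4. In knockout replicates 1 to 4 the sums were 2591, 1447, 712.2 and 1553 CPM. In both groups replicate 3 was highest in Chac1 and had the lowest sum, but replicate 2, lowest in Chac1, had the next lowest sum. With the mean of these markers as a covariate the log2 fold change of Chac1 was -0.75 (adjusted p = 0.07689 from edgeR), and the other 8 genes stayed past the threshold. The part of the adipocyte content in the level of Chac1 was not tested beyond this fit.

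**Figure D2:**
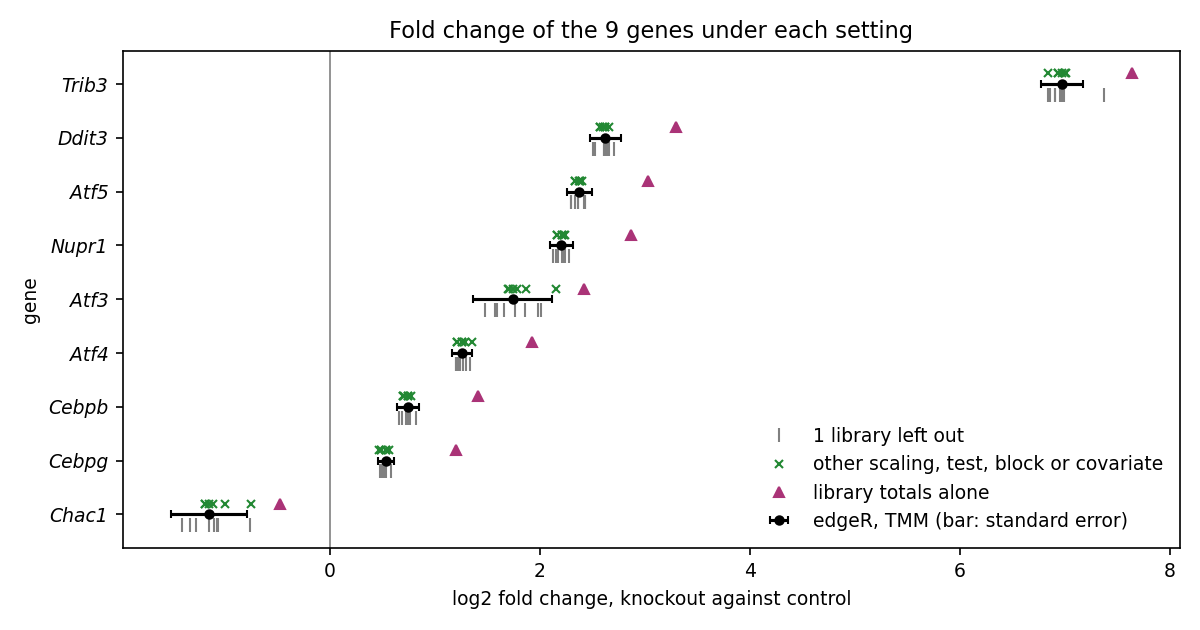
Log2 fold change of each of the 9 genes, knockout against control, with the standard error from edgeR as a bar; grey ticks leave out 1 library, green crosses use another scaling, test, block or covariate, and triangles use library totals alone. The 8 genes other than Chac1 stay above 0 under every setting drawn, from 0.47 for the lowest value of Cebpg to 7.64 for the highest of Trib3, and Chac1 stays below 0, between -1.41 and -0.48.

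The ratio of a gene to Atf4 within a library does not depend on how the libraries were scaled, so it shows whether the network's genes moved by the same factor as Atf4. Of 8 such ratios, taken as log2 of the counts with 0.5 added, 7 differed between the groups without overlap (exact permutation p = 0.0286 each, adjusted over the 8 ratios to 0.0327, two-sided). Atf4 itself rose by 1.26 on the log2 scale, and the median over all genes was 0.065. A gene that did not change thus also falls relative to Atf4. The share of all genes whose ratio to Atf4 separates the groups was not counted, so 7 of 8 describes these genes alone. Relative to Atf4, Trib3 was higher in knockout libraries by 5.79 on the log2 scale, Ddit3 by 1.33, Atf5 by 1.12 and Nupr1 by 0.95. Cebpb fell by 0.51, Cebpg by 0.72 and Chac1 by 2.24 relative to Atf4. Atf3 moved by 0.68, which was within the spread of the controls (exact permutation p = 0.286).

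The ratio of Nupr1 to Atf4 was the most even of these among the knockouts, at -3.57, -3.58, -3.64 and -3.51 on the log2 scale (SD 0.056), after -4.62, -4.53, -4.63 and -4.29 in the controls. That of Trib3 to Atf4 was at -1.43, -1.41, -1.58 and -1.46 (SD 0.077) in knockout libraries and at -7.36, -7.50, -7.79 and -6.39 in the controls. The ratio of Chac1 to Atf4 separated the groups although the level of Chac1 did not: it was -1.06, -1.82, -0.067 and -0.38 in the controls and -3.13, -3.22, -2.76 and -3.18 in knockout libraries. Relative to Atf4, Chac1 was thus lower in every knockout library than in any control library. That difference of -2.24 includes the rise of Atf4 by 1.26. Chac1 itself was at -1.15 and did not pass the threshold, so the ratio does not show that its own level fell.

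**Figure D3:**
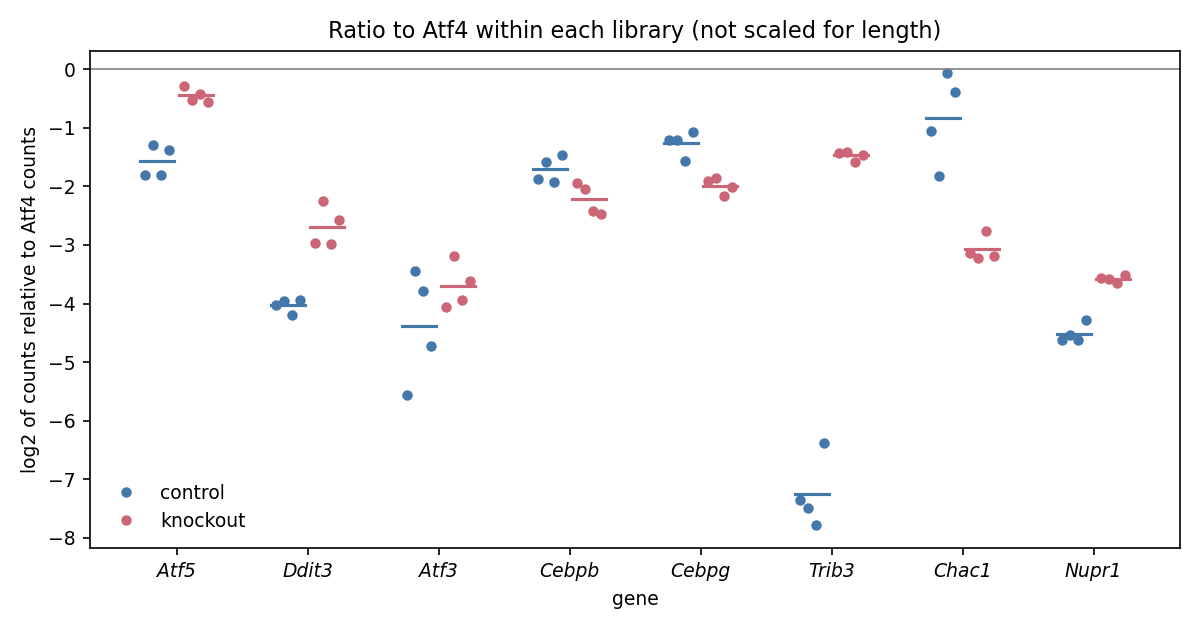
Log2 ratio of the counts of each gene to those of Atf4 within each library, with 0.5 added and without correction for length; points are libraries and bars group means, control in blue and knockout in red. Atf5, Ddit3, Trib3 and Nupr1 lie higher in all 4 knockout libraries than in any control library, Cebpb, Cebpg and Chac1 lie lower, and Atf3 overlaps.

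Relatives within the gene families were compared in the same way over 6 pairs. Trib3 rose by 7.10 on the log2 scale relative to Trib1, another Tribbles pseudokinase, and Trib1 itself was at 18.9 ± 4.69 CPM in control libraries and 17.9 ± 2.63 CPM in knockout libraries (SD, n = 4 each; log2 fold change -0.079, adjusted p = 0.72 from edgeR). Ddit3 rose by 1.85 relative to Cebpb, its dimer partner, and Atf3 by 1.41 relative to Jdp2, its closest relative. Together with Atf5 to Atf4, these pairs had an exact permutation p of 0.0286, adjusted over the 6 pairs to 0.0429. Cebpb and Cebpg did not separate from each other (0.21, exact permutation p = 0.114), nor did Chac1 and Chac2 (-0.68, exact permutation p = 0.314). A p that misses the threshold does not show that these pairs moved alike.

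Levels of different genes are comparable per length, as CPM per kb of exon width. In the controls the order of mean levels was Atf4 (99.8 CPM per kb), Chac1 (70.4), Cebpb (34.8), Atf5 (29.3), Cebpg (15.3), Ddit3 (12.1), Nupr1 (11.99), Atf3 (4.88) and Trib3 (0.565). Neighbours whose ranges overlapped were Atf4 and Chac1, Chac1 and Cebpb, Cebpb and Atf5, and Ddit3 and Nupr1. In the knockouts the order became Atf4 (238.8), Atf5 (152.4), Ddit3 (74.4), Trib3 (72.6), Cebpb (58.4), Nupr1 (55.5), Chac1 (31.7), Cebpg (22.1) and Atf3 (16.4), with overlap between Ddit3 and Trib3 and between Cebpb and Nupr1. Trib3 went from the lowest place to rank 4, and Chac1 from rank 2 to rank 7. The FPKM values of the authors gave the same ranks in both groups.

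**Figure D4:**
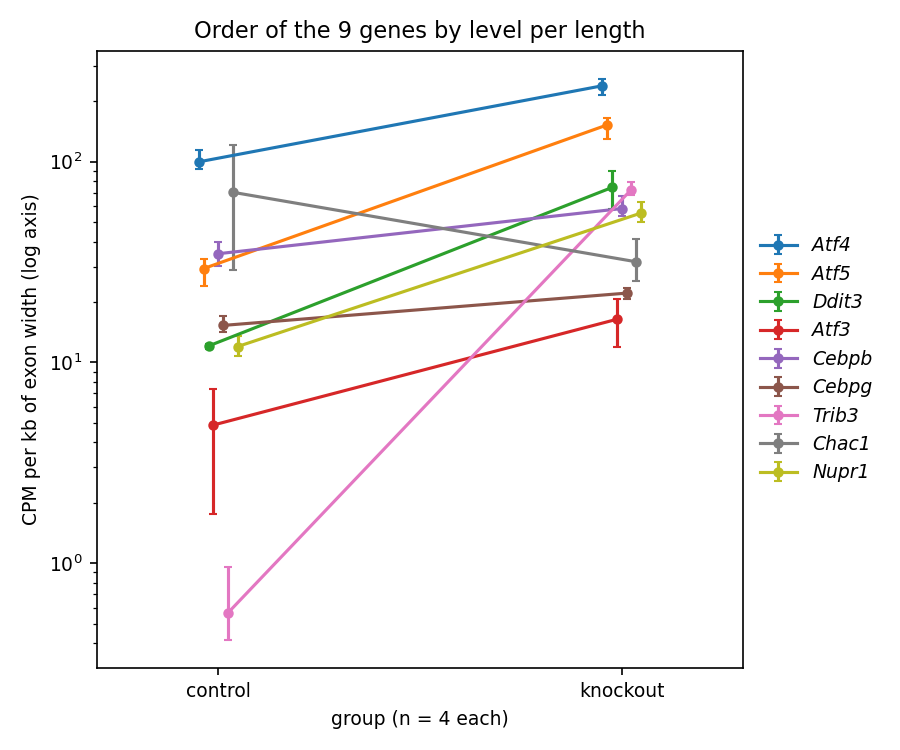
Mean level of each gene in CPM per kb of exon width on a log axis, in 4 control and 4 knockout libraries; bars run from the lowest to the highest library and lines join the means of a gene. Trib3 climbs from 0.565 to 72.6 CPM per kb, Chac1 is at 70.4 and 31.7 with a wide control range, and Atf4 is highest in both groups.

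For each gene the most similar profiles were sought among 11520 other genes, as the root mean square difference between log2 CPM profiles over the 8 libraries, each relative to its own control mean. Nearest to Atf4 were Dip2c (0.042) and Zw10 (0.069), and nearest to Atf5 were Ern1, the gene of the ER stress sensor IRE1α (0.070), and Tex264, an ER-phagy receptor (0.13). Ddit3 had E2f8 (0.15) and Dennd4a (0.20), Cebpb had Orc6 (0.078) and Zc3h12a (0.083), and Cebpg had Arpc5 (0.037) and Pabpn1 (0.047). Nupr1 was closest to Phf10 (0.11) and to Gars, the gene of glycyl-tRNA synthetase (0.13). Atf3, Trib3 and Chac1 had no close neighbour: the smallest differences were 0.31 to Col26a1 and 0.40 to Arpp21 for Atf3, 0.44 to Fibcd1 and 0.53 to Myh3, the embryonic myosin heavy chain, for Trib3, and 0.39 to Ecm2 and 0.40 to Dapp1 for Chac1. With many genes of similar fold change, a small difference in 8 libraries is a description of shape and size.

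Other known targets of ATF4 mostly rose as well. Of 25 such genes, 19 were higher and 2 lower (background 23.6% and 21.1%), with a median log2 fold change of 2.71. Fgf21, the gene of an endocrine stress hormone, had no count in any control library and 430 to 787 in knockout libraries, at least 125.0-fold higher against 3 counts in each control library. Gdf15, another secreted stress hormone, went from 4 counts over the 4 control libraries to 786 to 1555 counts per knockout library. Slc7a5, the large neutral amino acid transporter, rose from 1.85 ± 0.351 to 140.0 ± 16.9 CPM (SD, n = 4 each; adjusted p = 1.788e-08 from edgeR). Gpt2, a mitochondrial alanine aminotransferase, fell by 1.49 on the log2 scale, and Vldlr, a lipoprotein receptor, fell by 0.77, or by 0.11 with library totals alone, where it missed the threshold (adjusted p = 0.4757). Psph, Ddit4, Slc1a5 and Slc38a2 did not pass, with log2 fold changes of 0.19, 0.26, 1.319 and -0.27.

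Of 9 other genes that CHOP is known to act on, 8 were higher (background 23.6%), with a median log2 fold change of 2.16. Ero1l, an ER oxidase, rose by 2.33 (adjusted p = 1.476e-07), Bcl2l11, which encodes the cell death protein BIM, by 1.24 (adjusted p = 3.542e-05), and Sqstm1, the autophagy receptor p62, by 1.03 on the log2 scale (adjusted p = 1.654e-05, all from edgeR). Pmaip1, which encodes the cell death protein NOXA, had 7 counts over the control libraries and 20 to 45 per knockout library, and Car6, a carbonic anhydrase with a stress-induced intracellular form, had 1 and 84 to 212. Bcl2, which CHOP is known to repress, was at 12.03 ± 4.28 CPM in control libraries and 12.4 ± 1.75 CPM in knockout libraries (SD, n = 4 each; adjusted p = 0.87 from edgeR).

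Genes upstream of ATF4 in the eIF2α arm moved both ways, as did genes in general. Of 9, 3 were higher and 3 lower (background 23.6% and 21.1%), with a median log2 fold change of -0.10. Ppp1r15a, which encodes the stress-induced phosphatase subunit GADD34 and is counted among the CHOP targets too, rose by 2.24 (adjusted p = 3.118e-06), its constitutive relative Ppp1r15b by 0.61 (adjusted p = 7.557e-05) and Eif2s1, the gene of eIF2α, by 0.34 (adjusted p = 0.003776, all from edgeR). Eif2s1 missed the threshold without control replicate 2 (adjusted p = 0.01292), knockout replicate 1 (0.01267) or knockout replicate 3 (0.01029). Oma1, the mitochondrial protease that cleaves DELE1, fell by 0.89, Eif2ak1, the gene of the HRI kinase, by 0.45 and Dele1 (listed as 0610009O20Rik) by 0.42 on the log2 scale. With library totals alone Oma1 was at -0.22 (adjusted p = 0.01946), Eif2ak1 reversed to 0.22 (adjusted p = 0.02084) and 0610009O20Rik to 0.24 (adjusted p = 0.0149). The call of 0610009O20Rik was also lost with the adipocyte covariate (adjusted p = 0.01074) and without knockout replicate 4 (adjusted p = 0.01045, all from edgeR).

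Of 12 genes listed as paralogs of the 9, 4 rose and 1 fell (background 23.6% and 21.1%). The list is a broad one and takes in other bZIP factors that carry the name ATF. Their median was 0.26 on the log2 scale, and the difference from the 9 genes was not tested. Atf6, an ER-bound bZIP factor, rose by 1.97 (adjusted p = 4.318e-07), and Atf6b by 0.59 (adjusted p = 9.835e-04, both from edgeR). Nupr1l, at 0.105 ± 0.0715 and 0.536 ± 0.211 CPM, and Atf1, with a log2 fold change of 0.34, passed too, but Nupr1l lost its call in 7 of the 8 fits with a library left out and with the adipocyte covariate, and Atf1 in 6 of the 8 and with RLE scaling. The count of paralogs past the threshold went from 5 to 3 without control replicate 2, knockout replicate 1, 2 or 4. Atf7 fell by 0.31, but was at 0.36 with library totals alone and missed the threshold with the adipocyte covariate (adjusted p = 0.01278 from edgeR). Among 26 other bZIP factors 9 were higher and 9 lower (background 23.6% and 21.1%). Fosb rose by 2.15, Junb by 1.52 and Maff by 1.27, while Maf fell by 1.31 on the log2 scale.

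**Figure D5:**
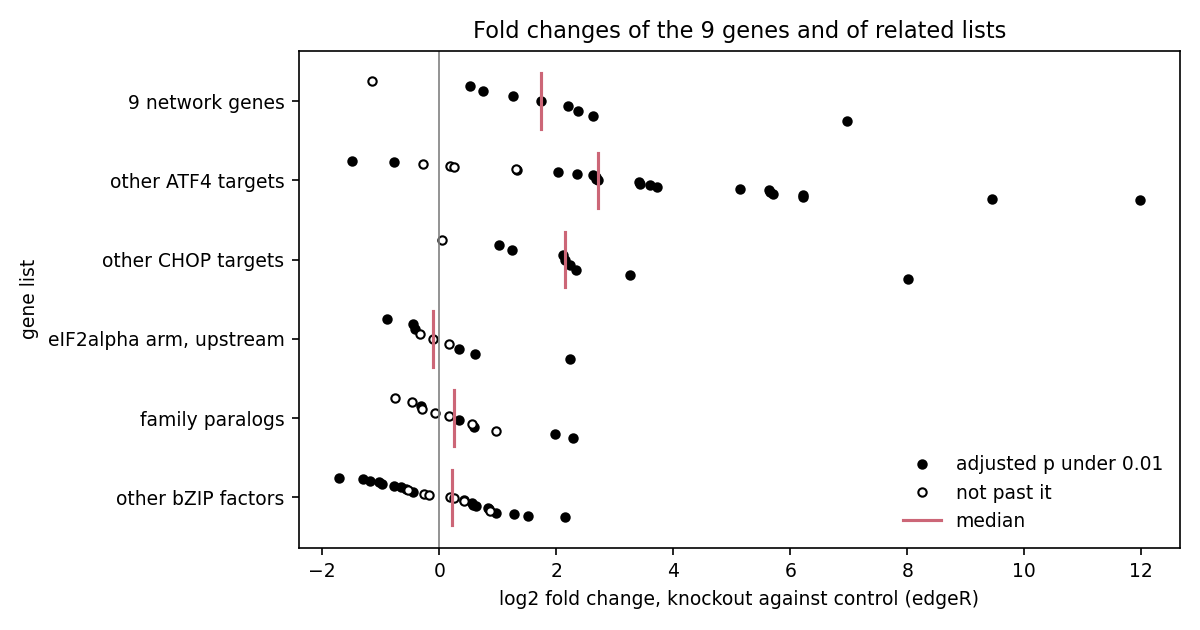
Log2 fold change, knockout against control, from edgeR for the 9 genes and 5 related lists; each point is a gene, filled where the adjusted p was under 0.01, and red bars are list medians. The medians are 1.74 for the 9 genes, 2.71 for other ATF4 targets, 2.16 for other CHOP targets, -0.10 upstream, 0.26 for paralogs and 0.22 for other bZIP factors, beside 0.065 over all genes.

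Atf3, Cebpb and Nupr1 are also induced in tissue that is handled or infiltrated, so genes of such states are given beside them. For the edgeR counts here and in the next paragraph, the background over all genes is 23.6% higher and 21.1% lower. Of 12 immediate-early genes 5 were higher and 3 lower, with summed levels of 439 to 578 CPM in control libraries and 338 to 372 CPM in knockout libraries. Nr4a1 had the highest control mean of the list, 239 CPM, against 65.75 CPM in knockout libraries. The sums largely follow that gene and do not describe the list as a whole. Fos did not pass the threshold (adjusted p = 0.01176 from edgeR). It ranged from 4.36 to 12.02 CPM over the 4 control mice and from 12.6 to 18 CPM over the 4 knockout mice. Ranges without overlap were found in 53.4% of all genes. The 3 genes called lower were Jun (log2 fold change -0.57), Dusp1 (-1.42) and Nr4a1 (-1.86), beside the 5 called higher. Of 10 macrophage markers 1 was higher (4 without control replicate 1), with sums of 88.3 to 233 and 184 to 348 CPM. Of 4 neutrophil markers measured, 1 was higher and 1 lower, with sums of 1.93 to 9.13 and 17.97 to 38.4 CPM. That count of 2 was 1 without control replicate 2 or 4 or any single knockout replicate. S100a8, with means of 0.366 CPM in control and 22.83 CPM in knockout libraries, made up most of the knockout sums. Mmp9 fell from a mean of 2.34 to 0.535 CPM. S100a9 and Csf3r did not pass (adjusted p = 0.3059 and 0.07355 from edgeR). None of 7 adipocyte markers passed in edgeR or in DESeq2 (1 at an unadjusted p under 0.05, and 1 without control replicate 4 in edgeR), with sums of 249 to 1500 and 712 to 2590 CPM.

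Muscle fibre markers summed to 212000 to 271000 CPM in control libraries and 68000 to 97300 CPM in knockout libraries, with 8 of 10 lower and 1 higher. Fibroblast markers were lower in 4 of 6, with sums of 1670 to 2530 and 665 to 1020 CPM, and endothelial markers in 5 of 6, with sums of 283 to 398 and 196 to 222 CPM. With library totals alone 1 fibroblast marker was lower and 1 higher, and 0 endothelial markers passed in edgeR, beside 5 of 6 with TMM. Of 6 satellite cell markers 2 were higher and 2 lower, with sums of 42.0 to 54.2 and 48.5 to 64.3 CPM. None of 5 Schwann cell markers passed in edgeR or in DESeq2 (1 at an unadjusted p under 0.05), with sums of 36.5 to 120 and 57.1 to 94.4 CPM. No marker was at 0 in every library. The part of any of these cell types in the levels of the 9 genes was not tested.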

How the data were processed

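QF RNA of 4 knockout and 4 control mice was analysed, 1 library per animal. The authors captured polyadenylated RNA, prepared libraries with a directional kit, trimmed reads with cutadapt, mapped them to GRCm38 with STAR 2.5.4b (per the submitters' processing notes) and deposited raw counts of read pairs on exons per gene, without duplicate, chimeric or multimapping reads and without genes under 50 reads in total. The annotation release and the use of strand in counting are not given in the sources used here. The deposited FPKM values, which the authors derived from those counts per exon width, served only to check the level order. The authors' own comparison from DESeq2 1.32.0 (mean signal per gene, log2 fold changes, the Wald statistic as a score, and p-values) was deposited in the same table and was not used.

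Counts of all 14012 genes were fitted with edgeR 4.0.16 in R 4.3.3 (TMM, glmQLFit and glmQLFTest, Benjamini-Hochberg adjustment, adjusted p under 0.01). DESeq2 1.42.0 was an alternative. Single values were compared by exact permutation over 4 against 4 libraries with SciPy 1.17.1, and ratios at an adjusted p under 0.05. At 95%, and for counting error only, a gene without counts may have had 3, or 0.189 to 0.242 CPM per control library and 0.119 to 0.137 CPM per knockout library. No 2 libraries agreed within sampling noise. Named genes were all 9 members, the 3 highest and 2 lowest fold changes among called genes of each pathway list, genes of the pairs, the 2 nearest profiles per member (mean count of at least 50, prior count 2) and Grpel1. A gene that this rule names is not reported here. The genes listed as not past, Fos, Jun, Dusp1, Nr4a1, S100a8, S100a9, Csf3r, Mmp9, Dele1, Bcl2, Nup62 and Mars were named after their values were seen. The members and the gene lists were chosen with earlier results of these data known. Other scalings, a low-count filter, thresholds, a replicate block, an adipocyte covariate and leaving out each library were tried. The fits were tested on simulated data. Protein sequences were not used here.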

Additional observations from a re-analysis of the deposited data

Results flagged for a closer look

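In 44 groups of 4 libraries (the levels of the 9 genes, and the ratios above, per group) 2 held a library far from the other 3, by the gap to its nearest neighbour as a share of the whole range (Dixon's 95% limit). Chance flags about 1 in 20 groups. Trib3 was at 1.953 CPM in control replicate 4, beside 0.851 to 0.969 CPM in the other control libraries, a gap of 0.893 of the range. The log2 ratio of Cebpb to Cebpg was -0.6567 in control replicate 1, beside -0.40 to -0.37 in the others, a gap of 0.897 of the range.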

How the results depend on the processing

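The 8 called genes of the network kept their direction under every alternative run. They also kept their call under RLE, upper-quartile or total scaling, a low-count filter, DESeq2, the looser threshold, the block, the covariate and each library left out. Asking for 2-fold left 6, without Cebpb and Cebpg. The call of Chac1 brought the count to 9 at an adjusted p under 0.05, with the block and without control replicate 2. The deviations of same-numbered libraries correlated by 0.12, 0.0031, 0.42 and 0.14, so 3 of 4 pairs were over 0.1, and 3 of 4 knockout and 3 of 4 control libraries were closest to the library of their own number. Since no label gives the numbers a meaning and 1 pair was not over 0.1, the numbers were not taken as a pairing. With the replicate block 6123 genes passed instead of 6265 and Chac1 was at -0.99 (adjusted p = 0.004374 from edgeR). At 2-fold, 2456 of all genes passed, 1 of those upstream, 2 paralogs, 7 other bZIP factors and 0 endothelial markers. With library totals alone 8 paralogs, 8 macrophage, 1 neutrophil, 2 fibroblast, 0 endothelial and 1 Schwann cell marker passed, Eif2ak1 turned to 0.2154, Dele1 (0610009O20Rik) to 0.2428, Atf7 to 0.3579 and Chac2 from -0.30 to 0.37, and all genes shifted by 0.67 relative to TMM. Macrophage markers numbered 4 in DESeq2 and 5 at an adjusted p under 0.05, where 1 Schwann cell marker passed. The block left 1 neutrophil marker and called 2 adipocyte markers, and the covariate left 3 paralogs. With 1 library left out, the counts ran from 3 to 5 for paralogs, 1 to 4 for macrophage, 1 to 2 for neutrophil and 0 to 1 for adipocyte markers, and from 5196 to 5867 for all genes. The cause was not tested. The ratios to Atf4 kept their sign with 2 added to the counts and with each library left out, where the smallest exact p is 0.0571.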
